A study of Mus musculus with 278 samples.

Results

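The ERK feedback inhibitors are 7 genes that damp signalling from receptor tyrosine kinases through RAS, RAF and MEK to the kinases ERK1 and ERK2: the phosphatases Dusp6 and Dusp4, the Sprouty genes Spry1, Spry2 and Spry4, and the Sprouty-related genes Spred1 and Spred2. They were taken by name from the 23354 genes of the expression matrix, and all 7 were found. Of these, 6 were among the 10452 genes tested, and Dusp4, found in too few cells, is described by its values. The cells were ID4-EGFP positive spermatogonia of untreated mice at postnatal day 6. All cells carried the same EGFP reporter of Id4, an inhibitor of DNA binding that marks spermatogonial stem cells, and no cell without the reporter was compared. Testes of more than 1 pup were pooled for a preparation, EGFP-positive cells were sorted and caught singly on a Fluidigm C1 chip, and dead cells and multiplets were left out from images. The groups were quartiles of EGFP brightness measured on the chip: Q1, the bright end, held 74 cells, Q2 held 70, Q3 held 74 and Q4, the dim end, held 60.

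ERK phosphorylates transcription factors of the ETS and AP-1 families, which switch on early response genes and, with them, inhibitors of the pathway itself. DUSP6 removes the activating phosphates from ERK in the cytoplasm and DUSP4 does so in the nucleus. Sprouty proteins act between the receptor and RAF, and SPRED proteins bring the RAS GTPase activating protein neurofibromin to the membrane. In the postnatal testis, GDNF from Sertoli cells acts on spermatogonial stem cells through the co-receptor GFRA1 and the kinase RET, and FGF receptors feed into the same pathway. The quartile comparison asked how transcripts of these inhibitors are distributed between the brightest and dimmest cells.

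Promoter sequences are shown for 3 members that differed in their pattern over the quartiles: Dusp6, Spry1 and Spred1. Dusp6 was the member with the highest level, and the difference of Spred1 pointed the other way. Of the 6 members tested, Spry1 had the most even difference between preparations on the log2(FPKM + 1) scale. The sequences are RefSeq windows on GRCm38.p6, from 250 bases before to 50 bases after the transcript start, on the plus strand. They lie at chr10:99262981-99263280 for Dusp6, chr3:37639697-37639996 for Spry1 and chr2:117120821-117121120 for Spred1. The Spred1 window ends before the GENCODE start of that gene, 117121374, so its positions count from another, upstream start. Capitals mark GGAA, the core that ETS factors bind, read on either strand (TTCC as printed).
Dusp6: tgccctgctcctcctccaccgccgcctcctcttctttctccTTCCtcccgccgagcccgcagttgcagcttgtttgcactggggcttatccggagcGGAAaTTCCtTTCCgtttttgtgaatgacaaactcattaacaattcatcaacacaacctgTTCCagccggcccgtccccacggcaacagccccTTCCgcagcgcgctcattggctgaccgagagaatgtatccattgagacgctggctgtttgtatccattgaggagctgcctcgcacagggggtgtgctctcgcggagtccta
Spry1: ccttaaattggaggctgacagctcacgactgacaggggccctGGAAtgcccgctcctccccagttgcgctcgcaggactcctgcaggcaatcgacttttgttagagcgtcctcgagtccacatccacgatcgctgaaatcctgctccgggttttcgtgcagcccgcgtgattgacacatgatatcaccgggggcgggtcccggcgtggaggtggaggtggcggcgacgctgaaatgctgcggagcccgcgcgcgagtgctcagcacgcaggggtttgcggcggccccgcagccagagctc
Spred1: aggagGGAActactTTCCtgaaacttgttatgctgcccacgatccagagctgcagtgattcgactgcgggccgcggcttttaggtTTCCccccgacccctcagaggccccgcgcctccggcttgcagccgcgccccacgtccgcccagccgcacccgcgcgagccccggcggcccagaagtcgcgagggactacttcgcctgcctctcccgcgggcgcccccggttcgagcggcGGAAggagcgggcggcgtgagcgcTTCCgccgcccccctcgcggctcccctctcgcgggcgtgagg
The core occurred 6 times in the Dusp6 window, 1 time in that of Spry1 and 5 times in that of Spred1, and 95.98% of the 32851 RefSeq promoters hold at least 1. In Dusp6, 3 of the cores stood close together, between 154 and 141 bases before the start. The longer ETS sequence CCGGAA, found in 14.9% of promoters on either strand and containing the core, was in none of these 3. It was found in Spry2, 1 of 5 members with a promoter in the table, from 33 to 38 bases after the start. The AP-1 sequence TGANTCA, found in 7.81% of promoters, was in none of the 5, and TGACGT, found in 7.51%, was in Spred2 alone. These letter matches are descriptions and not measured binding.

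Each quartile was present in each of 5 preparations of 26, 62, 37, 75 and 78 cells, with 4 to 20 cells per combination. The labels do not say whether the preparations came from separate litters, so p-values measure the spread between these preparations. Values are FPKM, fragments per kilobase of a transcript, made relative to all fragments of the same cell. Estimated depth was 615833 fragments per cell at the median, and 313199 to 966978 from the 5th to the 95th percentile. At that depth 1 FPKM was worth 1.29 fragments for Spry2, 1.69 for Dusp4 and 2.93 for Spry4, so a value near 1 rests on very few fragments. A cell at FPKM of at least 1 is called positive here, and a value of exactly 0 need not mean that no transcript was there: the housekeeping gene Gapdh was listed at 0 in 1 of 278 cells. The label of the cells as spermatogonia was checked on 9 germ cell markers, and all 9 were positive in over 50% of cells, with Ddx4, Dazl, Mael and Uchl1 in 100%. Of the markers of other testis cells, Amh of Sertoli cells, Cyp11a1, Cyp17a1, Hsd3b1, Insl3 and Lhcgr of Leydig cells and Lyz2 of macrophages were at 0 in every cell. Other genes of these lists were positive in some cells: Star in 19.8%, Cd68 in 14.4%, Clu in 10.1%, Sox9 in 7.55% and Wt1 in 6.12%. Ptprc was positive in 1.80%, Gata4 in 1.44% and Csf1r in 0.719%. The most frequent endothelial, peritubular myoid and erythroid markers were Pecam1 (10.1%), Tagln (8.99%) and Alas2 (6.83%). Single cells reached 84.3 FPKM for Star, 149 FPKM for Pecam1, 193 FPKM for Cd68 and 886 FPKM for Clu. The sums that follow are means over the cells of a preparation and quartile, given from the lowest to the highest of 5 preparations. The summed Leydig markers ran from 0 to 2.95 FPKM in Q1 and from 0 to 2.12 FPKM in Q4, and the macrophage markers from 0 to 10.96 FPKM in Q1 and from 0 to 7.75 FPKM in Q4. The summed Sertoli markers ran from 0.206 to 24.3 FPKM in Q1 and from 0.459 to 8.46 FPKM in Q4, higher in Q1 in 3 of 5 preparations. The summed endothelial markers ran from 1.10 to 4.22 FPKM in Q1 and from 0.394 to 23.8 FPKM in Q4. The summed peritubular myoid markers ran from 0 to 9.26 FPKM in Q1 and from 0 to 0.584 FPKM in Q4, and the erythroid markers from 0 to 8.20 FPKM in Q1 and from 0 to 0.241 FPKM in Q4, each higher in Q1 in 4 of 5 preparations. The median cell was positive for 0 markers of each of these lists, and their part in the results was not tested. Q1 cells had more positive genes than Q4 cells, 6293 ± 931 against 5732 ± 1305 (SD, n = 5), and more in 5 of 5 preparations (two-sided exact permutation p = 0.0625, the smallest that 5 preparations allow). Preparation 3 had the fewest, 4437 per cell, against 5875 to 7148 in the others.

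Dusp6 was the most abundant of the 7 members and Dusp4 the least. Averaged over preparations, the FPKM level was 51.2 ± 8.53 for Dusp6, 18.6 ± 6.39 for Spry4, 17.4 ± 5.13 for Spred1, 5.38 ± 2.53 for Spry2, 3.75 ± 1.56 for Spred2, 3.25 ± 1.26 for Spry1 and 0.333 ± 0.423 for Dusp4 (SD, n = 5). Of the neighbours in this order, Dusp6 over Spry4, Spred1 over Spry2 and Spry1 over Dusp4 held in 5 of 5 preparations (two-sided exact permutation p = 0.0625 for each, the smallest possible). The order of Spry4 and Spred1 (p = 0.9375), of Spry2 and Spred2 (p = 0.375) and of Spred2 and Spry1 (p = 0.6875) held in 4 of 5 each and did not exceed the spread between preparations in the same exact permutation test. The same ranking appeared in the share of positive cells only in part. Dusp6 was positive in 223 of 278 cells (80.2%, 95% Wilson interval 75.1 to 84.5%), Spry2 in 155 (55.8%), Spry4 and Spred1 in 147 each (52.9%), Spred2 in 93 (33.5%), Spry1 in 57 (20.5%, 16.2 to 25.6%) and Dusp4 in 14 (5.04%, 3.02 to 8.27%). These intervals cover counting error only. Spry2 was thus found in about as many cells as Spry4 but at a lower level: among positive cells its median was 6.15 FPKM, against 27.5 FPKM for Spry4. On GRCm38, by the GENCODE annotation, the 7 protein-coding genes lie at chr10:99263231-99267489 (Dusp6, plus strand), chr8:34807297-34819894 (Dusp4, plus), chr3:37639947-37644598 (Spry1, plus), chr14:105891947-105896819 (Spry2, minus), chr18:38586247-38601415 (Spry4, minus), chr2:117121374-117182279 (Spred1, plus) and chr11:19924375-20024026 (Spred2, plus). Of the other Sprouty and SPRED genes, Spry3 was listed at 0 in every cell and Spred3 was positive in 0.719% of cells.

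**Figure D1:**
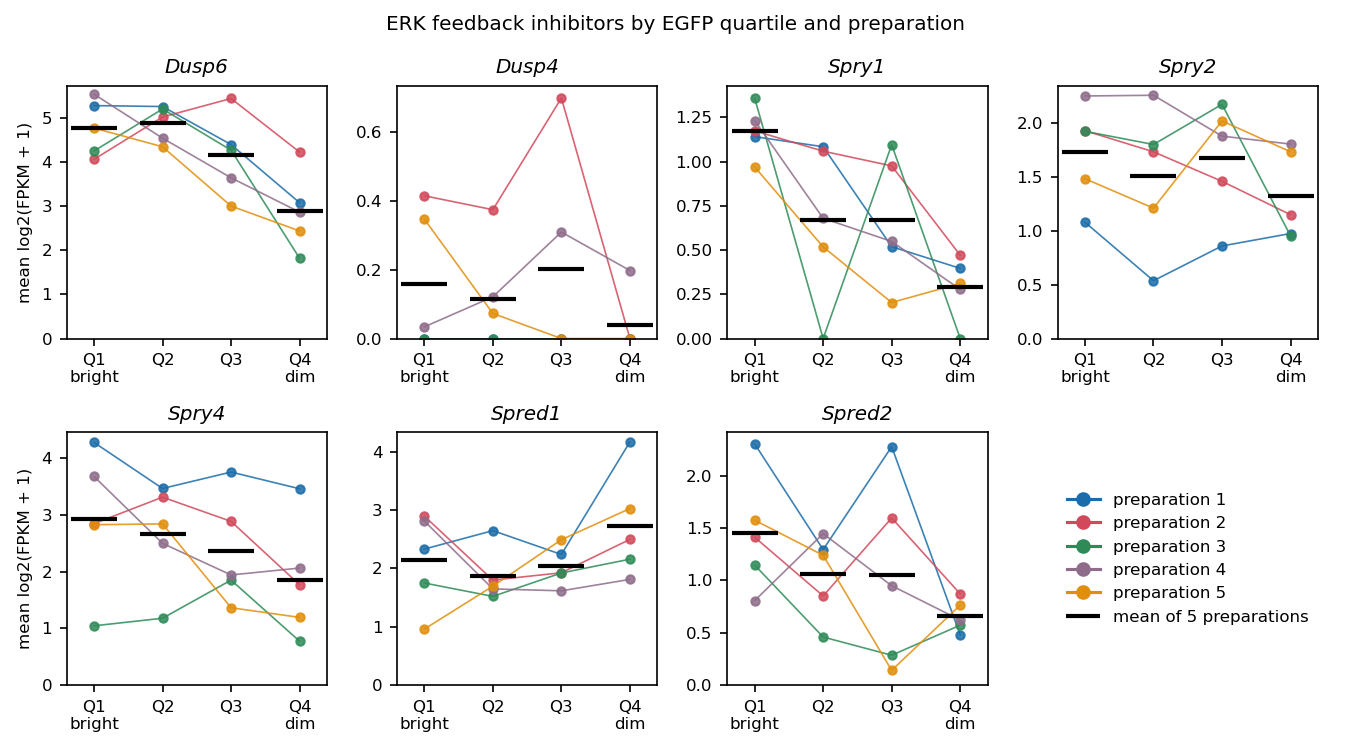
Mean log2(FPKM + 1) over cells (y axis, own scale per gene, from 0) for the 7 members in each EGFP quartile, Q1 to Q4 (x axis). Coloured points and lines are the 5 preparations and black bars their mean. Dusp6 is lowest in Q4 in all preparations but preparation 2, all 5 Spry1 values of Q1 lie above all 5 of Q4, and Spred1 has its highest mean in Q4.

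Between Q1 and Q4, 5 of the 6 members tested had a difference above 0 and Spred1 had one below 0, and none passed the test across all genes (limma, Benjamini-Hochberg adjusted p under 0.05), which 0.0765% of the 10452 genes did. At an unadjusted p under 0.05, 4 of the 6 (Dusp6, Spry1, Spry4 and Spred2) were higher in Q1, as were 10.4% of all genes. The median difference of the 6 members was 0.73 on the log2(FPKM + 1) scale, beside 0.17 over all genes, of which 69.5% were above 0. In a linear trend over the 4 quartiles the same 4 members had an unadjusted p under 0.05 toward Q1, beside 11% of all genes, and none of the 6 passed the adjusted threshold, which 0.134% of genes did. The members' median slope was 0.23 per quartile step, beside 0.05 over all genes. The log2(FPKM + 1) scale understates differences of genes at a low level.

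As mean log2(FPKM + 1), Dusp6 stood at 4.77 ± 0.64 and 4.87 ± 0.41 in Q1 and Q2, against 4.15 ± 0.91 and 2.88 ± 0.89 in Q3 and Q4 (SD, n = 5). As mean FPKM, which the highest cells weigh on, Q2 and Q3 stood above Q1, and Q4 was the lowest. Mean FPKM in preparations 1 to 5 was 45.8, 38.9, 37.2, 57.5 and 68.4 in Q1, and 50.7, 72.4, 95.02, 59.2 and 49.8 in Q2. It was 50.4, 76.6, 74.8, 34.9 and 29.9 in Q3, and 16.5, 58.9, 32.3, 33.3 and 29.9 in Q4. The ranges of Q1 and Q4 overlapped through preparation 2, the preparation with the highest Q4 mean and the second lowest Q1 mean. On the log2(FPKM + 1) scale the difference between Q1 and Q4 was 2.20, -0.16, 2.43, 2.67 and 2.33 in preparations 1 to 5. Preparation 2 was the exception, and the other four lay close together. The fitted difference was 1.82 ± 0.41 (SE; limma adjusted p = 0.0917), in place 22 of 10452 genes by p. The slope was 0.62 ± 0.13 per step toward Q1 (limma adjusted p = 0.0574), in place 15. Without preparation 2 both passed, at 2.41 ± 0.39 (limma adjusted p = 0.0153) for Q1 against Q4 and 0.82 ± 0.12 per step (adjusted p = 0.00843). That preparation stands out in these same values, so the pass is a description and not support. Neither passed when any other preparation was left out. Without preparations 1, 3, 4 and 5, the limma adjusted p for Q1 against Q4 was 0.194, 0.122, 0.336 and 0.378.

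Of the steps between neighbouring quartiles, that between Q3 and Q4 was the largest for Dusp6, and the steps were not tested against each other. Its level in Q1 exceeded that in Q2 by 0.07 ± 0.40, that in Q2 exceeded Q3 by 0.70 ± 0.40, and that in Q3 exceeded Q4 by 1.04 ± 0.41 (log2 difference ± SE, limma adjusted p = 0.999, 0.974 and 0.586). None of the 6 members passed at any of the 3 steps, and 0% of all genes tested did at each step, while 426, 489 and 773 genes had an unadjusted p under 0.05. Over all genes the median step was 0.008, 0.035 and 0.136, so the last was the largest there too. At that step 67.4% of all genes were above 0, and 694 of the 773 were higher in Q3. Of the members, Spry1 at the first step and Dusp6 at the last had an unadjusted p under 0.05.

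In 4 of 5 preparations fewer Q4 than Q1 cells were positive for Dusp6, while the level of the positive cells overlapped between quartiles. The share of positive cells in Q1 was 91.3 ± 8.70%, close to the 94.5 ± 5.70% of Q2, while it was 76.8 ± 13.1% for Q3 and 59.5 ± 25.1% for Q4 (SD, n = 5). In preparations 1 to 5 the share was 100, 81.3, 90.9, 100 and 84.2% in Q1, against 75, 93.3, 28.6, 53.3 and 47.4% in Q4. Preparation 2 again ran the other way, and in the other four every Q1 share was above every Q4 share. The difference was 31.8 ± 28.1 percentage points (SD, n = 5), above 0 in 4 of 5 preparations (two-sided exact permutation p = 0.125). Among positive cells the mean log2(FPKM + 1) was 5.20 in Q1 and 4.90 in Q4, a difference of 0.29 ± 1.03 (SD, n = 5; two-sided exact permutation p = 0.5625). That difference was -0.00294 without preparation 1 and 0.71 without preparation 3, whose positive Q4 cells numbered 2 of 7. Taking the log2 of the mean FPKM, which weights the highest cells, gave a difference of 0.51 ± 0.30. In the dim quartile the median cell had 4.71 FPKM, against 37.5 in Q1, 34.8 in Q2 and 22.3 in Q3, while the highest Q4 cell reached 339 FPKM and the highest Q1 cell 271 FPKM. Fewer molecules per cell and fewer cells that express the gene cannot be told apart at this depth.

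**Figure D2:**
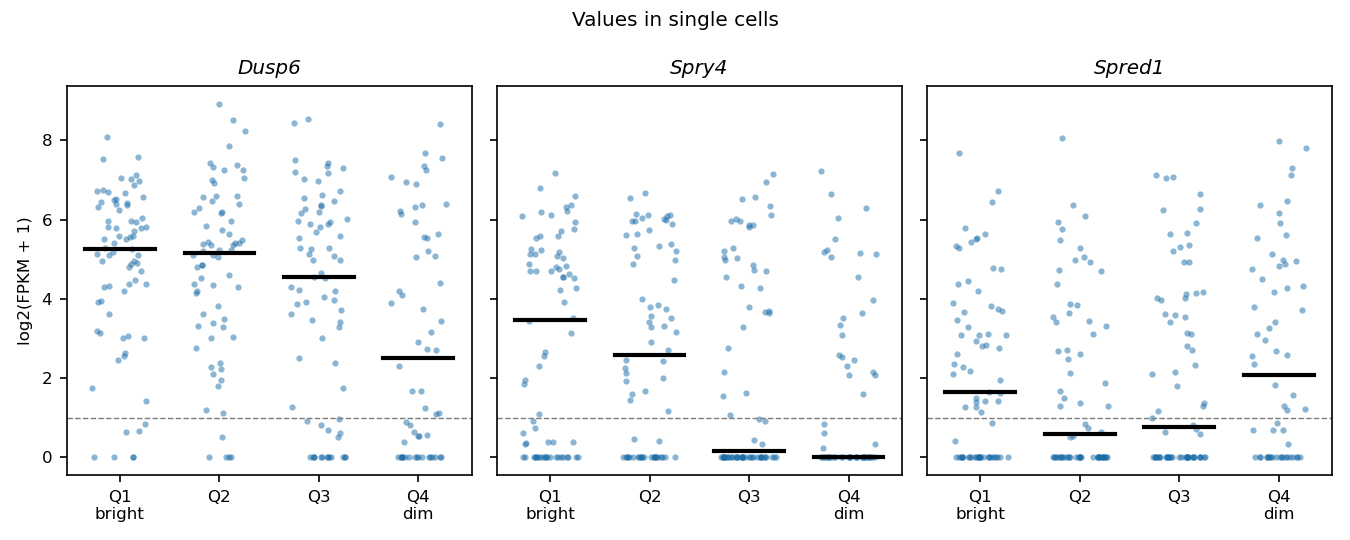
Values of Dusp6, Spry4 and Spred1 in single cells as log2(FPKM + 1) (y axis) by EGFP quartile (x axis), from Q1 (74 cells) to Q4 (60 cells). Points are cells, black bars medians, and the dashed line the limit of FPKM 1 for a positive cell. The Dusp6 median is 37.5 FPKM in Q1 and 4.71 FPKM in Q4 although positive cells span a similar range, and the Spry4 median is 0 in Q4.

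Dusp4, the nuclear phosphatase, was positive in 4 cells of Q1, 4 of Q2, 5 of Q3 and 1 of Q4. None of these cells came from preparations 1 or 3, where its mean was 0 in all 4 quartiles. Mean FPKM was 1.12, 0.0298 and 1.04 in Q1 of preparations 2, 4 and 5, and 0, 0.453 and 0 in Q4 of the same preparations. All 14 Dusp4-positive cells were also Dusp6-positive, as were 80.2% of all 278 cells and 88.7% of those of preparation 2. Dusp4 was positive in under 10% of cells, and in a fit with no such limit its difference between Q1 and Q4 was 0.16 ± 0.10 (SE; limma adjusted p = 0.661).

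Among the Sprouty genes, which act upstream of RAF, Spry1 was found in few cells. On the log2(FPKM + 1) scale alone, its differences between Q1 and Q4 lay closest together of the members tested. Mean FPKM in preparations 1 to 5 was 5.17, 3.75, 12.1, 6.02 and 5.21 in Q1, against 0.5005, 0.974, 0, 0.695 and 0.559 in Q4. Every Q1 value lay above every Q4 value, also as mean log2(FPKM + 1). Of the 6 members tested, Spry1 was the only one whose groups did not overlap in this way, which 0.651% of all genes did toward Q1. Q2 and Q3 stood between, at 2.24 ± 1.39 and 2.61 ± 2.17 FPKM (SD, n = 5), and as mean log2(FPKM + 1) both overlapped Q1 and Q4. The fitted difference was 0.84 ± 0.20 (SE; limma adjusted p = 0.107), in place 33 of 10452 genes. The first step, Q1 against Q2, was 0.46 ± 0.19, against 0.06 ± 0.19 for Q2 against Q3 and 0.31 ± 0.20 for Q3 against Q4. Positive cells numbered 22 of 74 in Q1, 14 of 70 in Q2, 14 of 74 in Q3 and 7 of 60 in Q4, and their median was 13.9, 10.4, 7.39 and 4.30 FPKM in that order. The share of positive cells differed by 17.5 ± 13.6 points between Q1 and Q4 (SD, n = 5; two-sided exact permutation p = 0.125). In preparation 1 it was 25% in both. The log2 of the mean FPKM gave 2.06 ± 0.48. Exons of Spry1 overlap those of the opposite-strand transcript Gm42922, and whether reads were assigned by strand is not given in the sources used here.

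Spry4 had a higher mean in Q1 than in Q4 in every preparation, and of the 7 members it had the most variation between preparations on the log2(FPKM + 1) scale. Mean FPKM in preparations 1 to 5 was 31.97, 22.8, 5.59, 27.1 and 25.96 in Q1, against 16.5, 5.69, 1.76, 19.5 and 13.7 in Q4. As mean FPKM the groups overlapped only through preparation 3, the lowest in both. As mean log2(FPKM + 1) they overlapped without it too. There Q4 of preparation 1, of 4 cells, stood at 3.46, above Q1 of preparations 2 (2.85) and 5 (2.83). Differences within preparations were 0.82, 1.08, 0.27, 1.62 and 1.64 on the log2(FPKM + 1) scale. On that scale, a Q1 mean above the Q4 mean in 5 of 5 preparations was seen for 3 of the 6 members (Spry1, Spry4 and Spred2), beside 8.42% of all genes. The fitted difference of Spry4 was 1.27 ± 0.37 (SE; limma adjusted p = 0.170), and its slope 0.43 ± 0.12 per step (adjusted p = 0.131). Its share of positive cells averaged 59.97 ± 27.03% for Q1, 62.6 ± 20.9% for Q2, 49.8 ± 23.2% for Q3 and 48.6 ± 31.2% for Q4 (SD, n = 5). It was higher in Q1 than in Q4 in 3 of 5 preparations (two-sided exact permutation p = 0.4375), by 11.4 ± 25.4 points (SD, n = 5).

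Spry2 differed little over the quartiles. Its mean was 6.21 ± 2.55 FPKM for Q1, 5.11 ± 3.39 FPKM for Q2, 5.86 ± 2.89 FPKM for Q3 and 3.81 ± 2.39 FPKM for Q4 (SD, n = 5), with ranges that overlapped throughout. The difference between Q1 and Q4 was 0.36 ± 0.28 (SE; limma adjusted p = 0.656), from -0.25 in preparation 5 to 0.97 in preparation 3. The share of positive cells was 52.95 ± 17.5% in Q1 and 48.9 ± 11.95% in Q4.

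Of the SPRED genes, Spred2 had a higher mean log2(FPKM + 1) in Q1 than in Q4 in 5 of 5 preparations. Mean log2(FPKM + 1) in preparations 1 to 5 was 2.30, 1.41, 1.15, 0.81 and 1.57 in Q1, against 0.48, 0.87, 0.57, 0.62 and 0.76 in Q4, so that the lowest Q1 value lay within the range of Q4. The fitted difference was 0.62 ± 0.29 (SE; limma adjusted p = 0.425). As mean FPKM, Q4 was higher than Q1 in preparation 4 alone, at 3.65 against 1.92. The log2 of the mean FPKM gave 0.42 ± 0.55 (SE; limma adjusted p = 0.919). The share of positive cells was 48.2 ± 23.8% in Q1 and 24.1 ± 9.70% in Q4 (SD, n = 5), a difference of 24.1 ± 22.6 percentage points that was above 0 in 5 of 5 preparations (two-sided exact permutation p = 0.0625, the smallest possible). It ran from 5 points in preparation 4 to 62.5 points in preparation 1, the preparation whose Q4 mean rests on 4 cells, and was 14.5 points without that preparation.

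Spred1 was the only one of the 6 members with a fitted difference below 0. Mean FPKM in preparations 1 to 5 was 9.20, 16.4, 5.03, 24.5 and 5.86 in Q1, against 38.5, 13.9, 55.8, 12.7 and 29.5 in Q4. Q4 was higher in preparations 1, 3 and 5 and lower in 2 and 4, so the groups overlapped widely. The fitted difference was -0.43 ± 0.40 (SE; limma adjusted p = 0.726), and without preparation 5 it was 0.20 ± 0.40 (adjusted p = 0.914). The share of positive cells was 63.5 ± 21.4% in Q1 and 57.1 ± 21.3% in Q4 (SD, n = 5), while the level among positive cells was lower in Q1. As mean log2(FPKM + 1), Q1 stood at 3.33 ± 0.63, Q2 at 3.81 ± 0.56, Q3 at 4.34 ± 0.67 and Q4 at 5.03 ± 1.62 (SD, n = 5). The difference of -1.70 ± 2.08 was below 0 in 4 of 5 preparations (two-sided exact permutation p = 0.1875). The Q4 level rests on 3 positive cells in preparation 1 and 2 in preparation 3, and without preparation 3 the difference was -1.01. Set against Spred1, the difference of Spry4 was greater in 5 of 5 preparations, by 1.67 ± 1.43 (SD, n = 5; two-sided exact permutation p = 0.0625), and that of the other 4 members tested in 4 of 5, with p from 0.125 to 0.1875. This set of 5 comparisons was chosen after the values had been seen.

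**Figure D3:**
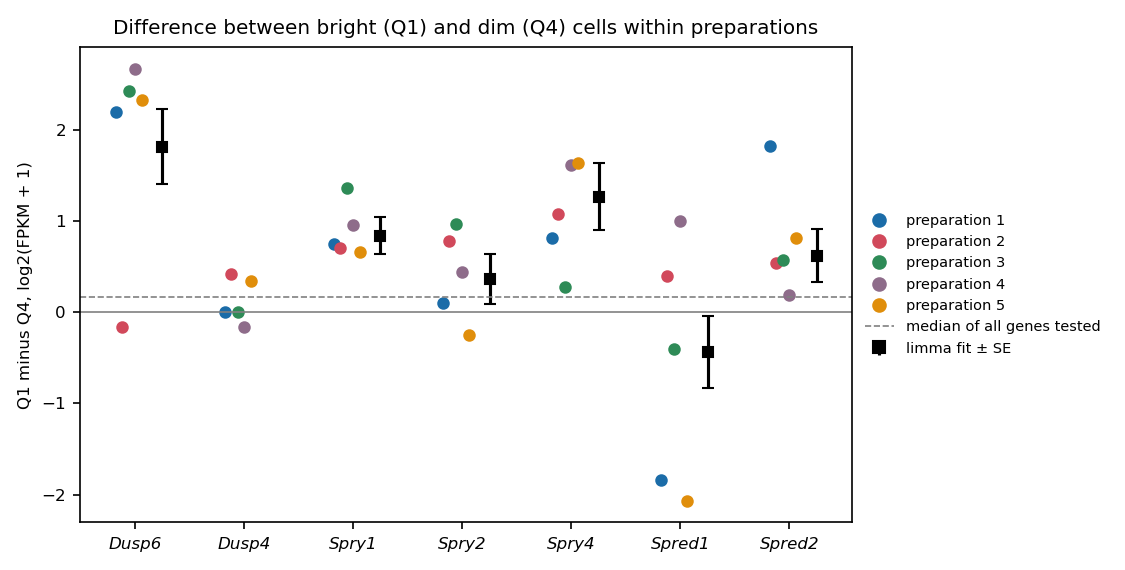
Difference between Q1 and Q4 in mean log2(FPKM + 1) (y axis) for each member (x axis). Coloured points are the 5 preparations, black squares the limma fit with its SE (none for Dusp4), and the dashed line the median of all genes tested, 0.17. All 5 points of Spry1, Spry4 and Spred2 lie above 0, preparation 2 stands apart for Dusp6, and Spred1 spreads from -2.07 to 1.00.

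**Figure D4:**
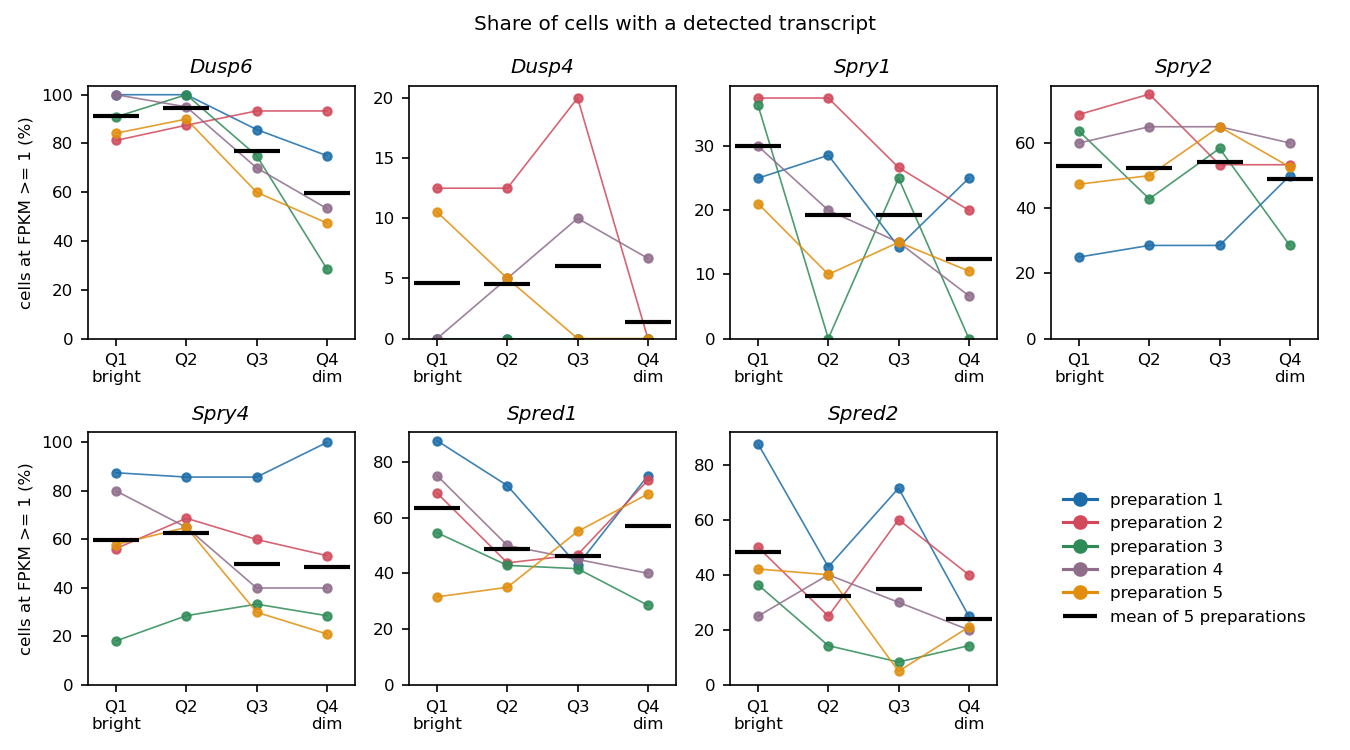
Share of positive cells in percent (y axis, own scale per gene, from 0) for each member by EGFP quartile, Q1 to Q4 (x axis). Coloured points and lines are the 5 preparations and black bars their mean. The mean share of Dusp6 is 91.3% in Q1 and 59.5% in Q4, that of Spred2 48.2% and 24.1%, and that of Spry2 52.95% and 48.9%.

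Most of the variation lay between cells of the same preparation and quartile. They held 84.7% of the squared deviation of log2(FPKM + 1) for Dusp6, 86.7% for Spry4 and up to 93.3% for Spry2. Quartiles within preparations held 12.6% for Dusp6 and from 2.95% (Spry2) to 7.82% (Spred2) for the other members. Preparations held 6.69% for Spry4, the most of the 7, and 0.974% for Spred1, the least. Means of few cells differ through the sampling of cells alone, and no such part was subtracted. A small share thus need not reflect a quartile or a preparation.

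Few cells held none of the members and few held nearly all. Positive members per cell averaged 3.50 ± 0.51 for Q1, 3.14 ± 0.54 for Q2, 2.87 ± 0.56 for Q3 and 2.52 ± 0.91 for Q4 (SD, n = 5). Q1 exceeded Q4 by 0.99 ± 0.56, in 5 of 5 preparations. Positive genes of all kinds were also more numerous in Q1 in 5 of 5, at 6293 ± 931 per cell against 5732 ± 1305 (SD, n = 5). Cells with none numbered 0 of 74 for Q1, 2 of 70 for Q2, 4 of 74 for Q3 and 5 of 60 for Q4. Cells with 6 or more numbered 6 for Q1, 0 for Q2, 1 for Q3 and 1 for Q4, and the 1 cell with all 7 was in Q3.

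Across single cells, Dusp6 and Spry4 went together, and the other members showed little relation. With preparation and quartile means taken out, the correlation of log2(FPKM + 1) over 278 cells was 0.35 for Dusp6 with Spry4, from 0.06 to 0.43 within the 5 preparations. Of the 147 Spry4-positive cells, 137 were Dusp6-positive, in a count pooled over preparations and quartiles. Of all 278 cells, 223 (80.2%) were Dusp6-positive. The other pairs of members had correlations from -0.07 to 0.13. Dusp6 correlated at 0.54 with Etv5, an ETS factor that GDNF induces in spermatogonia, at 0.45 with Gfra1, at 0.35 with Ret and at 0.28 with the early response gene Egr1. Within preparations these ran from 0.10 to 0.70 for Etv5, 0.14 to 0.49 for Gfra1, -0.04 to 0.53 for Ret and -0.04 to 0.40 for Egr1. Lower correlations of Dusp6 were those with the ETS gene Etv4, at 0.17, and the early response gene Fos, at 0.09. They ran from 0.03 to 0.28 and from 0.02 to 0.47 within preparations. Spry4 correlated at 0.37 with Etv5, at 0.26 with Ret and at 0.25 with Gfra1, with the lowest preparation at 0.15, 0.01 and -0.06. The number of positive genes per cell correlated at -0.03 with Dusp6 and 0.14 with Spry4. Correlations with Id4 itself were 0.19 for each. These cells come from shared preparations, and the values are descriptions.

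By likeness of pattern over the 20 means of preparation and quartile, the gene most like Dusp6 was Gfra1 (Pearson r = 0.91), then Egr1 (0.87) and Rab11b (0.87), a GTPase of recycling endosomes. Over single cells the order was Etv5 (0.54), Gfra1 (0.45) and Foxc2 (0.43), a forkhead factor. Spry4 was most like Eif2s3x (0.83), a subunit of a translation initiation factor, over the means and most like Etv5 over cells. Spry1 was most like Upf3b (0.87), Spry2 most like Ggnbp2 (0.86), Spred1 most like Gtf3c4 (0.77) and Spred2 most like Adap1 (0.82). The second gene for Spred1 was Errfi1 (0.76), an inhibitor of the EGF receptor, whose difference between Q1 and Q4 was -0.30. The 20 means behind these values share preparations.

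Gfra1 was chosen for its likeness to Dusp6 over means that include preparation 2, so its values there are a description. Between Q1 and Q4, Gfra1 differed by 1.75, -0.06, 2.63, 2.41 and 2.81 in preparations 1 to 5, so that preparation 2 was again the lowest and near 0. Ret differed by 2.12, 0.11, 2.46, -0.01 and 1.83. Not all genes of the pathway were near 0 there: in preparation 2, Etv5 differed by 1.29, Egr1 by 0.85 and Dusp1 by 2.22. Id4 itself differed by 2.62, 0.45, 1.40, 1.47 and 2.44, so that preparation 2 had the smallest difference of the gene behind the reporter.

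The other genes of the pathway were read in 7 lists. No gene of any list passed the adjusted threshold between Q1 and Q4 (limma), and at an unadjusted p under 0.05 none was lower in Q1, beside 1.03% of all genes tested. The counts that follow are of genes with such a p on the higher side in Q1, and each stands beside the 10.4% of all genes. Among receptors and co-receptors, 4 of 10 tested had an unadjusted p under 0.05, led by Gfra1 (1.93 ± 0.43, log2 difference ± SE, limma adjusted p = 0.0858) and Ret (1.04 ± 0.37, adjusted p = 0.275), and the list's median was 0.29. Gfra1 averaged 50.2 ± 21.4 FPKM in Q1 and 28.8 ± 9.36 in Q4, and Ret 21.7 ± 5.25 and 13.7 ± 7.32 (SD, n = 5). The FGF receptor Fgfr1 differed by 0.39 ± 0.28 and the receptor Kit, a marker of differentiating spermatogonia, by -0.03 ± 0.39. Of adaptors and RAS activators 0 of 10 had such a p, with a median of 0.32 and the smallest p for Grb2 (0.62 ± 0.33) and Shc1 (0.72 ± 0.39).

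In the kinase cascade itself, 2 of 15 RAS, RAF, MEK, ERK and scaffold genes had an unadjusted p under 0.05, both on the higher side in Q1, among them the GTPase gene Rap1a (1.02 ± 0.28, limma adjusted p = 0.163). The list's median was 0.38. Of the RAS GTPase activating proteins 1 of 6 had such a p (Rasa3, 1.07 ± 0.30, adjusted p = 0.163), with a median of 0.30, and Nf1, which encodes neurofibromin, the partner of SPRED proteins, differed by 0.26 ± 0.33 (adjusted p = 0.824). Of other phosphatases and inhibitors, 2 of 14 had such a p, with a median of 0.35: Dusp1 (1.54 ± 0.36, adjusted p = 0.105), a nuclear phosphatase of several MAP kinases, and Dusp5 (0.43 ± 0.20, adjusted p = 0.425), a nuclear ERK phosphatase. Dusp7 and Dusp9, cytoplasmic relatives of Dusp6, were positive in 65.8% and 61.2% of cells. Of regulators that bind the members, such as Dyrk1a (0.57 ± 0.33) and Plk1 (0.50 ± 0.43), 0 of 8 had such a p, with a median of 0.13.

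In the list of ERK-induced genes, drawn up by name, all 17 tested had a difference above 0, the lowest being 0.000342 for Elk4. The list includes transcription factors such as Elk1, Elk4 and Srf, and whether ERK induces each gene in these cells was not tested. An unadjusted p under 0.05 was found for 9 of the 17, beside the 10.4% of all genes, with a list median of 0.52 beside 0.17 over all genes. The smallest p belonged to Etv5 (1.62 ± 0.39) and Egr1 (1.12 ± 0.27), both with limma adjusted p = 0.107. Etv5 averaged 55.1 ± 16.5 FPKM in Q1 and 36.6 ± 12.6 in Q4, and Egr1 averaged 89.4 ± 24.8 and 69.2 ± 17.7 (SD, n = 5). Bcl6b, a repressor that GDNF induces in spermatogonial stem cells, differed by 1.05 ± 0.37 and Etv4 by 0.80 ± 0.29, each higher in 5 of 5 preparations. The fraction of genes above 0 was itself high in these cells, 69.5% of all genes tested. A further fit took as covariate the number of positive genes per cell, averaged in each preparation and quartile. There 48.7% of all genes were above 0, with a median of -0.02. Dusp6 stood at 1.73 ± 0.66, Spry4 at 1.72 ± 0.58, Spry1 at 0.91 ± 0.33 and Spry2 at 0.61 ± 0.44. Spred2 stood at 0.43 ± 0.47 and Spred1 at -0.43 ± 0.64, and the limma adjusted p of these 6 ran from 0.783 to 0.983.

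**Figure D5:**
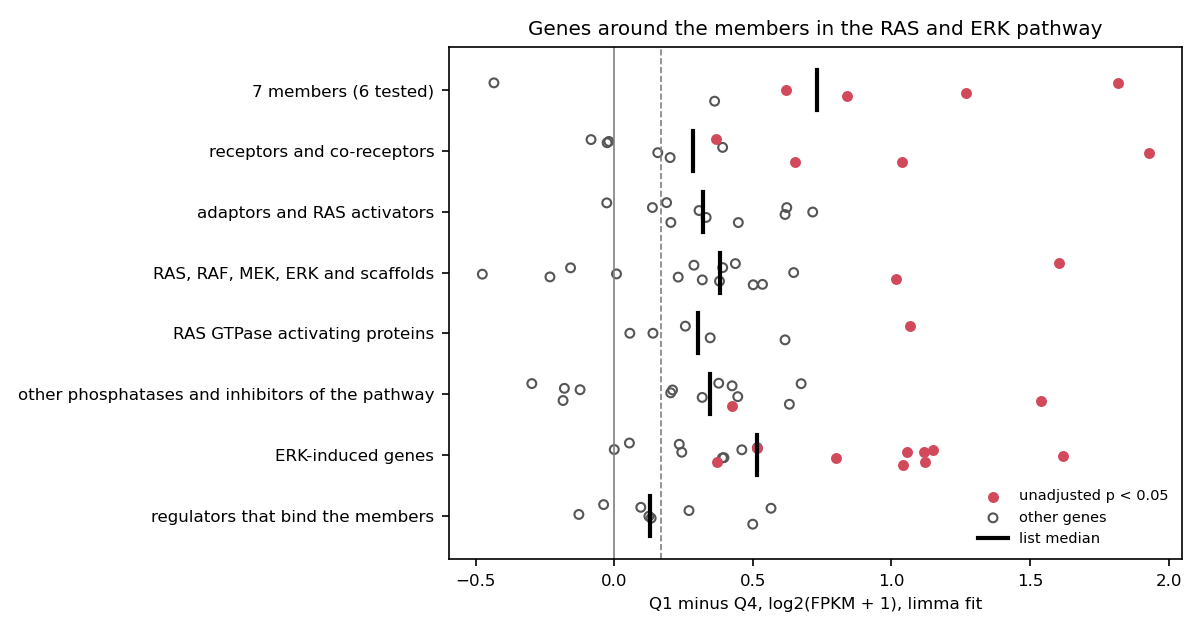
Fitted difference between Q1 and Q4 in log2(FPKM + 1) (x axis) for the members and the genes of 7 pathway lists (rows). Points are genes, red where the unadjusted limma p is under 0.05, black bars the list medians and the dashed line the median of all genes tested, 0.17. The members' median is 0.73, that of the list of ERK-induced genes 0.52, and no gene with a difference below 0 is red.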

How the data were processed

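The 278 libraries are single cells. The deposited values are FPKM per gene and cell. The header does not state the unit, which was read from the quantifier's name and the values. The submitters' processing notes name the genome mm10 (GRCm38) and the tools TopHat, Cufflinks, Picard and FastQC. Their versions and settings, like the annotation, were not given in the sources used here. The run number in the titles, 1 to 5, was taken as the preparation. Log2(FPKM + 1) was averaged over the cells of each of 20 combinations of preparation and quartile. Genes positive in at least 10% of cells were fitted with limma 3.58.1 (R 4.3.3, trend = TRUE), weighted by cells, with 4 quartiles and a preparation block (12 residual degrees of freedom). Dusp4 fell below that filter. All tests are two-sided, and limma p-values were adjusted by Benjamini-Hochberg over 10452 genes. The numbers pair the means because the quartiles of a preparation share a cell suspension: deviations from quartile means correlated positively in all 30 pairs from the same preparation (lowest 0.08, median 0.19), and at a median of -0.07 in the other pairs. Shares and levels were compared by exact sign-flip permutation tests. The protocol's text numbers the dim quartile differently from the design text, whose order was used. Depth was estimated from the steps between low values of 2110 genes with 1 transcript. Named pathway genes are the 2 with the smallest p in each list, of which 1 is not reported here, and values of others were added after they had been seen; the 3 most like genes were taken by correlation. The members and lists were chosen with earlier results of these data known.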

Additional observations from a re-analysis of the deposited data

Results flagged for a closer look

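Among 35 groups of 5 preparations examined, 3 had a value far from the others by Dixon's criterion, which chance alone gives in about 1 of 20 groups. The Dusp6 difference between Q1 and Q4 was -0.16 in preparation 2, the lowest of 5, and from 2.20 to 2.67 in the other four. The mean log2(FPKM + 1) of Dusp4 in Q4 was 0.198 in preparation 4 and 0 in the others, and rests on 1 positive cell. The mean of Spred1 in Q2 was 2.65 in preparation 1, against 1.52 to 1.80 in the others.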

How the results depend on the processing

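The 8 genes called between Q1 and Q4, and the 14 called in the trend, became 0 and 0 without the replicate block, with no filter, with the replicate block and detected genes as a covariate, with the log2 of mean FPKM, with unweighted means and without the 4-cell mean, which was chosen after seeing the data. Only Q1 and Q4 in the fit gave 0 for the first. Scaling cells to a common 75th percentile gave 38 and 61 genes, and leaving out 1 preparation gave 0 to 11 and 0 to 9. That scaling raised the median of all genes from 0.17 to 0.26 in the Q1 against Q4 fit, and called 1 member there (Dusp6, 1.87, adjusted p = 0.0308) and 2 in the trend (Dusp6 and Spry1, adjusted p = 0.0180 and 0.0450). A pseudocount of 0.1 called 1 member in the trend (Dusp6). Leaving out 1 preparation called 0 to 1 members in each. Dusp6 ranged from 1.503 to 2.41 and was called without preparation 2. Without the replicate block it was 1.84 (adjusted p = 0.503), and over all 15 alternatives its adjusted p ran from 0.0153 to 0.835. Spred1 ranged from -0.94 to 0.20 and reversed without preparation 5, in the trend too, at 0.0523 without it (-0.32 to 0.0523). The Spry2 share difference ranged from -3.71 to 11.3 points and reversed without preparation 3. That of Spred1 ranged from -0.738 to 17.2 and reversed without preparation 4, and at FPKM of at least 5 (-4.99). The level of Dusp6 among positive cells ranged from -0.00294 to 0.71, reversing without preparation 1, in an alternative chosen after seeing the data. The cause of these shifts was not tested. The fitted differences of Dusp6, Spry1, Spry2, Spry4 and Spred2 stayed above 0 in every alternative run for Q1 against Q4. At 4 cells in the smallest mean and few fragments at FPKM 1, the data limit what can be seen of Dusp4 and Spry1.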
